A study of Mus musculus with 10 samples.

Results

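PRDM14 peaks were examined around Dnmt3a, Dnmt3b and Dnmt3l, the genes of the de novo DNA methylation machinery, in mouse embryonic stem (ES) cells. A peak was counted for a gene when its position lay within 100 kb of the gene span on mm9, and 11 of the 3608 peaks of the list met this: 5 for Dnmt3b, 4 for Dnmt3a and 2 for Dnmt3l. No gene of the 3 was without a peak. The peaks come from chromatin immunoprecipitation and sequencing (ChIP-seq) with an antibody against GFP (Abcam ab290) in C57BL/6 ES cells that lacked both copies of Prdm14 and had been rescued with Prdm14 fused to an AVI tag and EGFP, so they are sites of the added fusion protein, in cells without the endogenous one. The cells were grown with LIF and serum, fixed with 1% formaldehyde for 5 min, and the recovered DNA was sheared to about 150 bp. The labels do not say which promoter drives the fusion, how much of it is made or how many clones were used. The series holds 10 libraries in 10 groups of 1, and the peak list comes from 1 of them. The other 9 (the input of the same cells, a GFP immunoprecipitation and input from Prdm14-/- cells given only EGFP, and libraries for H3K27me3, for SUZ12 and of input from Prdm14+/+ and Prdm14-/- cells) were not analysed here. Every value is therefore a description of 1 library with no replicate, without a test, and no level in the cells with EGFP alone stands beside it.

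De novo methylation places methyl groups on cytosines that carried none, mostly at CpG dinucleotides. DNMT3A and DNMT3B are the enzymes that do this, and DNMT3L is a relative without catalytic activity that binds them and stimulates them. PRDM14 is a zinc finger protein of the PR-domain family, known in ES cells and primordial germ cells for keeping the genome low in methylation and for repression of the Dnmt3 genes. No methylation or expression was measured in the peak list, so binding near the genes is all that is described.

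Start regions of the genes are shown first, because the peaks are described by where they lie relative to them. RefSeq (GRCm38.p6) lists 1 transcription start window for Dnmt3b, 3 for Dnmt3a and 3 for Dnmt3l, all on the + strand, so that the lower end of each gene span is the 5′ end of the gene. The window of Dnmt3b is shown because all 5 peaks of that gene lay upstream of it. For Dnmt3a and Dnmt3l, whose spans held peaks, the second listed start of Dnmt3l and the third of Dnmt3a are shown. Both lie inside the gene, about as far from the first start as a peak lies from the lower end of the span. The third Dnmt3l start, 13.0 kb after the first, also lies inside the gene and is not shown. Each run gives the 250 bases before the start, 5′ to 3′, with CpG dinucleotides in capitals.
Dnmt3b, chr2:153649199-153649448, + strand: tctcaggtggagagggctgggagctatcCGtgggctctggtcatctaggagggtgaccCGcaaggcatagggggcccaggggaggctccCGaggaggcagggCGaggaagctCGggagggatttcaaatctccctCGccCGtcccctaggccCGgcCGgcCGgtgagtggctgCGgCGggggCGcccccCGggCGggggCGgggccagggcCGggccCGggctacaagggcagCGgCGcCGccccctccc
Dnmt3a, chr12:3891494-3891743, + strand: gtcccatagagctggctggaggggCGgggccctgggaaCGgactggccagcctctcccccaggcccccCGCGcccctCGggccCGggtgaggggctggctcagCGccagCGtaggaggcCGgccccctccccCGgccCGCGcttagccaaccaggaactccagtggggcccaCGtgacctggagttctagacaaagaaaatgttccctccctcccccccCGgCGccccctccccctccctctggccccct
Dnmt3l, chr10:78049592-78049841, + strand: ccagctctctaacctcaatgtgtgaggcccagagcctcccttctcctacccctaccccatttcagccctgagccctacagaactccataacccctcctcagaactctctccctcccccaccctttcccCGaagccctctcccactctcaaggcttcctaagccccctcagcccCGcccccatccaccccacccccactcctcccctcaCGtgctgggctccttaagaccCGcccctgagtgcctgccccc
The stretch before the Dnmt3b start held 21 CpG dinucleotides, that before the internal Dnmt3a start 15, and that before the internal Dnmt3l start 4. The Dnmt3a starts at the 5′ end of the gene, which are not shown, had more than any of these, 38 and 40. The Dnmt3l starts that are not shown had 5 at the 5′ end and 3 inside the gene. The 300-base windows also take in 50 bases after the start. Their GC content was 76.0% at Dnmt3b, 74.0% at the internal Dnmt3a start and 62.7% at the internal Dnmt3l start. The median over all 32851 windows was 52.7%. At the Dnmt3a starts of the 5′ end GC content was higher than at Dnmt3b, 82.3% and 81.0%. At the Dnmt3l starts not shown it was 54.7% and 60.3%. The same windows held 30 CpG dinucleotides at Dnmt3b, 46 and 47 at the 5′ end of Dnmt3a and 18 at its internal start. The internal Dnmt3l start shown had 4, and the median over all windows was 7. The letters GGTCTCTAA, a motif reported for PRDM14, were searched on both strands, as was the contained shorter form GTCTCTAA. Neither was present in any of the 7 windows of the 3 genes, and over all windows they were present in 0.256% and 0.855%. This says only that these letters are not in these windows. The windows are on another build than the peaks, and the sequences under the peaks themselves were not used here.

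Dnmt3b, which encodes an active enzyme known to increase when ES cells leave the naive state, had the most peaks and the tallest. All 5 lay upstream of the gene, none inside it and none downstream. Height is the maximum of the immunoprecipitated reads piled up in a peak (maximum IP), as deposited, and is not scaled to depth. In order along chromosome 2 towards the gene, the first peak (153409870 to 153410609, mm9) lay 64.7 kb from the gene span and reached 61 reads. The second (153437230 to 153438249) lay 37.3 kb away and reached 137 reads. The third (153447760 to 153449069) lay 26.7 kb away and reached 810 reads, which was rank 23 of 3608. The first of these was below the list's median of 83 reads, and the third was among the tallest peaks of the list. The fourth (153464800 to 153465859) lay 9.7 kb away and reached 166 reads. The fifth and nearest (153468610 to 153469369) lay 5.9 kb away and reached 76 reads. The tallest peak was thus neither the nearest nor the farthest, and the distance of 5.9 kb leaves the Dnmt3b start itself, at the lower end of the span, without a peak. Distances are good to about 1 kb, since gene spans were taken in whole kilobases.

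**Figure D1:**
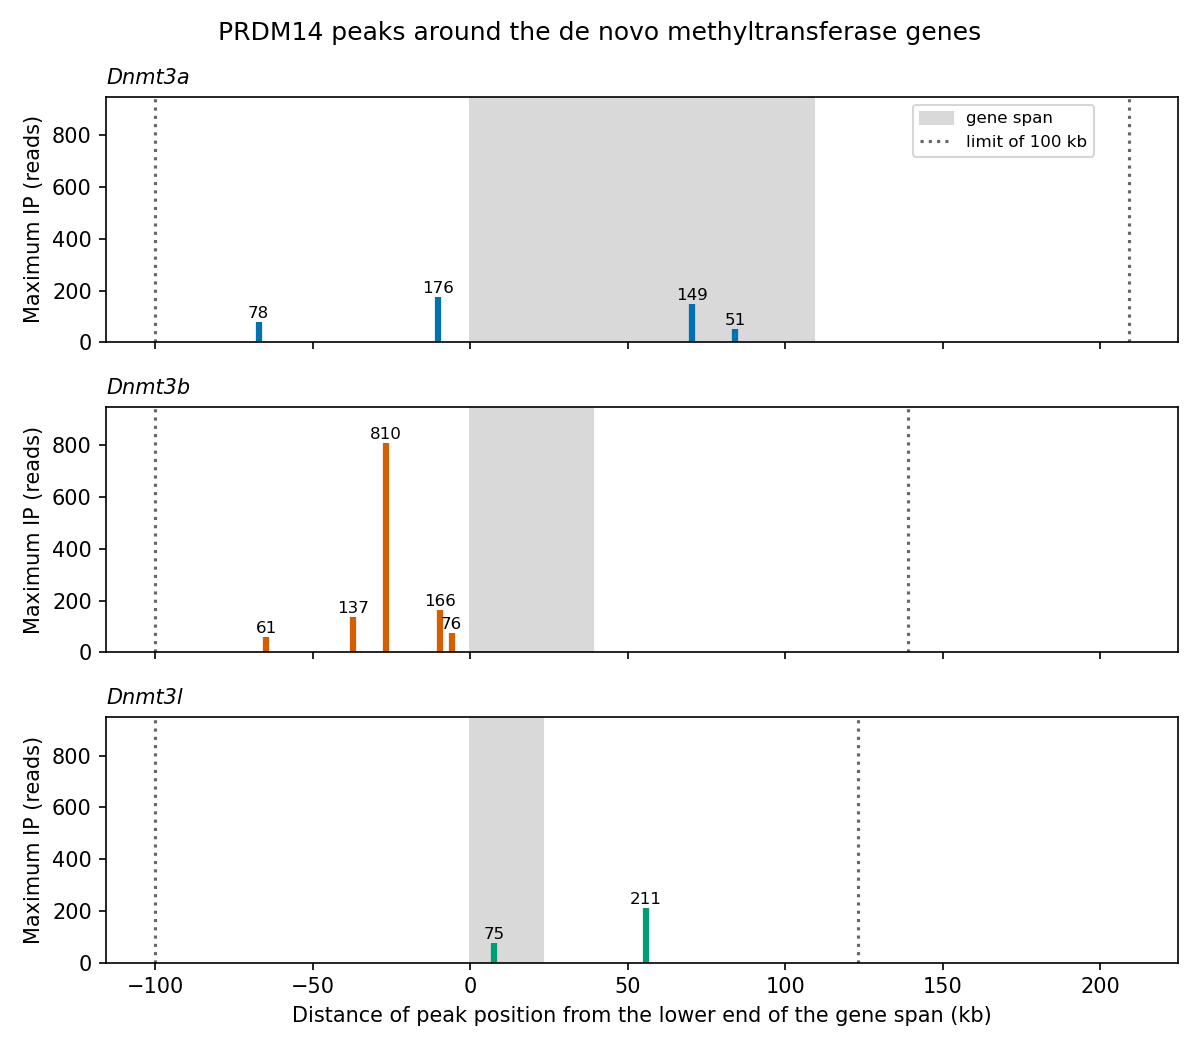
Maximum IP in reads (vertical axis) of each PRDM14 peak against its distance in kb from the lower end of the gene span (horizontal axis), for Dnmt3a, Dnmt3b and Dnmt3l from top to bottom; grey is the gene span and dotted lines are the limit of 100 kb. The 5 Dnmt3b peaks all stand to the left of the span, with the one of 810 reads above every other, whereas Dnmt3a has 2 peaks inside its span and Dnmt3l has 1.

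Between neighbouring Dnmt3b peak positions the steps were 27.46, 10.56, 17.02 and 3.77 kb, and the 5 positions together spanned 58.8 kb. The pair nearest to the gene, 3.77 kb apart, gave the 2 of the 11 peaks that had a neighbour within 10 kb, a share close to the 16.2% of all peaks. That cut alone does not describe the spacing. The median distance to the nearest other peak was 13.6 kb over the 11 peaks, against 105.2 kb over all peaks. The genes differed in this distance. It ran from 3.77 to 27.46 kb at Dnmt3b and from 13.55 to 56.87 kb at Dnmt3a, and was 48.08 kb at Dnmt3l. In each case the nearest other peak was one of the same gene. The next peak below the Dnmt3b group was 213.5 kb away and the next above, across the gene, 784.7 kb. The median step between neighbouring peaks of the list was 282.3 kb. The peak just outside the limit on the lower side, 278.2 kb from the span, was tall, with 595 reads (rank 61).

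Enrichment, the authors' ratio over a control that is not named, ordered the Dnmt3b peaks in the same way at the top. It was 317.97 at the tallest peak (rank 54), 157.16 at the fourth, 115.74 at the second, 73.1 at the first and 56.04 at the fifth. All 5 were above the list's median of 55.8, the fifth only just. Against peaks of like height (within 10%), the first Dnmt3b peak stood highest, with an enrichment above that of 94.1% of 827 such peaks. It was a low peak, with 61 reads against the list's median of 83. Its ratio of enrichment to maximum IP was close to the largest on chromosome 2, 1.218, so little higher an enrichment occurred at such a height there. The tallest was near the middle, above 55.6% of 18.

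Dnmt3a, the other active enzyme, had 4 peaks over 151.1 kb of chromosome 12, and they lay on both sides of its 5′ end. Outside the gene, a peak at 3738440 to 3739449 was 67.1 kb upstream and reached 78 reads. A second upstream peak, at 3795210 to 3796279, lay 10.3 kb from the span and reached 176 reads (rank 573), the highest value of this gene. Inside the gene, a peak at 3875950 to 3876819 lay 70.4 kb from the lower end, at 64.6% of the span, and reached 149 reads (rank 753). The last, at 3889570 to 3890169, lay 84.0 kb from the lower end, at 77.0% of the span, and reached 51 reads, close to the minimum of 45 reads in the list. The 2 peaks above the list's median thus lay 1 upstream and 1 inside the gene, and so did the 2 below it. No peak lay downstream of the gene within the limit.

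The taller pair at Dnmt3a also had the higher enrichment, 195.21 upstream (rank 194) and 152.09 inside the gene (rank 326). The lower pair had 28.74 inside the gene and 18.2 at the far upstream peak, both under the list's lower quartile of 32.1. That far upstream peak combined an ordinary height with a wide interval of 1009 bp, wider than 92.7% of 561 peaks of like height, and an enrichment above only 6.95% of them. Beyond the limit the list was empty for a long way on the downstream side. The next peak above lay 4991.3 kb from the gene span, a step of 5.02 Mb from the last Dnmt3a peak, and 51 of 3588 steps between neighbours (1.42%) were as long. On the lower side, the Dnmt3a peaks were the first of the 147 on chromosome 12.

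RefSeq places the third Dnmt3a start 84.8 kb after the first, on GRCm38.p6. From this internal start a shorter isoform is made, known as the main form of DNMT3A in ES cells. The 51-read peak was 84.0 kb from the lower end of the span on mm9. These distances start from different points, the first listed start and the lower end of the span. They also come from different builds and from a span rounded to 1 kb, and whether the peak overlaps that start was not tested.

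Dnmt3l, which encodes the stimulating partner, had the fewest peaks. The first, at 77510990 to 77511959 of chromosome 10, lay inside the gene, 7.6 kb from its lower end and at 33.2% of the span, and reached 75 reads. The second, at 77559040 to 77559979, lay 32.7 kb downstream of the gene and reached 211 reads (rank 409). No peak was found upstream within the limit, where Dnmt3b had all of its peaks. The second RefSeq start of Dnmt3l is 7.6 kb after the first on GRCm38.p6. The limits given for Dnmt3a hold for this distance too, and overlap with the mm9 peak was not tested. Enrichment was nearly the same at both peaks, 60.46 inside the gene and 66.01 downstream, although their heights were 75 and 211 reads. For its height, the peak inside the gene was wide, at 969 bp against a median of 769 bp over 600 peaks of like height. The next peaks lay 194.3 kb above the span, with 160 reads, and 847.7 kb below it, with 111 reads.

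Set against the list, the 11 peaks were taller and wider in the median, with a large spread. Heights ran from 51 to 810 reads with a median of 137, against 83 over all peaks. At or above the list's upper quartile of 133 reads were 6 of the 11 (3 of Dnmt3b, 2 of Dnmt3a and 1 of Dnmt3l), where 25.3% of all peaks were. The same 6 were those at or above the list's median (50.2% of all peaks), so that the heights fell into a group from 137 reads up and a group from 78 reads down. Each gene had peaks in both groups. Peaks of 1 gene share their locus, and neither the genes nor the peaks are replicates.

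**Figure D2:**
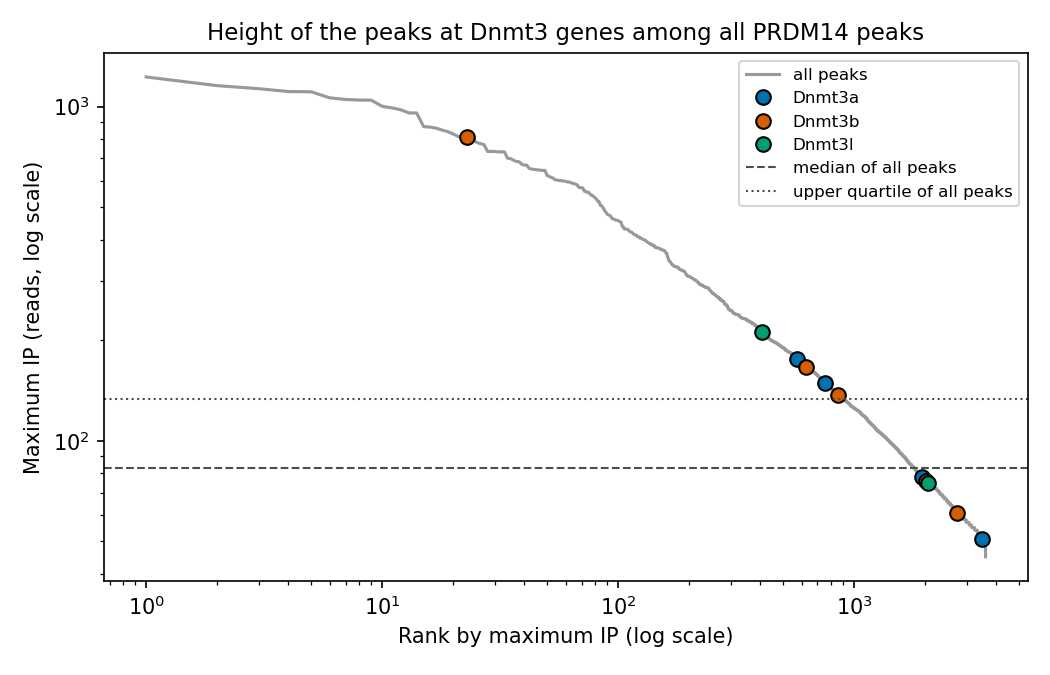
Maximum IP in reads (vertical, log scale) against rank by maximum IP (horizontal, log scale) for all 3608 peaks as a grey line, with the peaks at Dnmt3a, Dnmt3b and Dnmt3l as coloured points; the dashed line is the median and the dotted line the upper quartile of all peaks. Of the 11 points, 6 lie above the dotted line, 5 lie below the dashed line, and the Dnmt3b peak of 810 reads stands alone at rank 23.

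Widths ran from 599 to 1309 bp, with a median of 969 bp against 809 bp over all peaks. At or above the list's median width were 8 of the 11 (51.3% of all peaks), and at or above its upper quartile of 979 bp were 5 (25.0% of all peaks). The widest was the 810-read peak of Dnmt3b, at 1309 bp, and the narrowest was the 51-read peak of Dnmt3a. For its height the former was narrow, since 18 peaks of like height had a median width of 1514 bp. The 211-read peak downstream of Dnmt3l was below the median for its height too, with 939 bp against 1039 bp over 165 peaks. So were both peaks inside Dnmt3a, the 149-read peak with 869 bp against 969 bp over 238 peaks and the 51-read peak with 599 bp against 629 bp over 536, and the 76-read peak of Dnmt3b, with 759 bp against 769 bp over 587. The other 6 of the 11 were wider than the median of peaks of like height. By enrichment, 9 of the 11 were at or above the list's median (50.0% of all peaks) and 5 at or above its upper quartile of 86.8 (25.0% of all peaks). The 2 below the median were both at Dnmt3a.

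**Figure D3:**
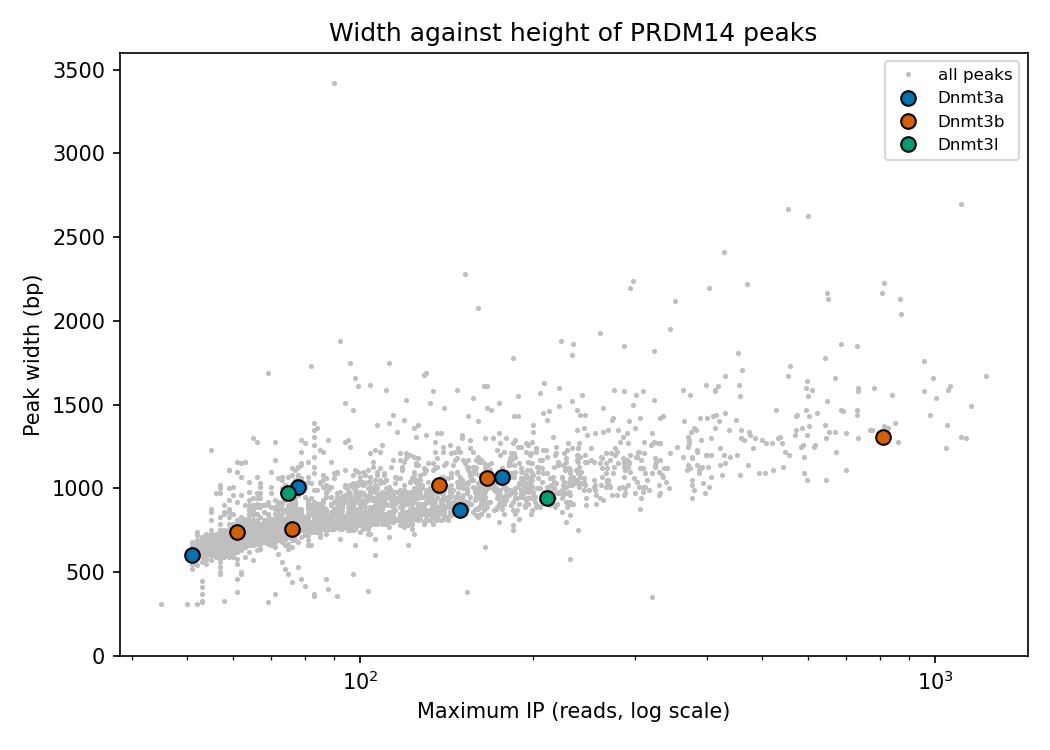
Peak width in bp (vertical) against maximum IP in reads (horizontal, log scale), with all 3608 peaks in grey and those at the 3 genes in colour. The peaks of 78 reads at Dnmt3a and 75 reads at Dnmt3l were wider than 92.7% and 92.5% of peaks of like height. Those of 51 reads at Dnmt3a and 810 reads at Dnmt3b were wider than only 3.92% and 11.1%.

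Counts per gene were set beside all stretches of the same length. The gene spans with 100 kb on each side measured 309 kb for Dnmt3a, 239 kb for Dnmt3b and 223 kb for Dnmt3l. Windows of these lengths were laid every 10 kb along each chromosome, from its first to its last peak. At least 1 peak was present in 28.2%, 23.2% and 22.0% of them, in the same order. At least 4 peaks, the number at Dnmt3a, were present in 1.24% of windows of that length. For Dnmt3b, at least 5 peaks were present in 0.321% of windows, and for Dnmt3l, at least 2 were present in 6.39%. Windows overlap each other, and they cover stretches with and without genes, since genes were not placed on mm9 beyond these 3. The shares are therefore a description of the list and not a comparison with other genes.

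**Figure D4:**
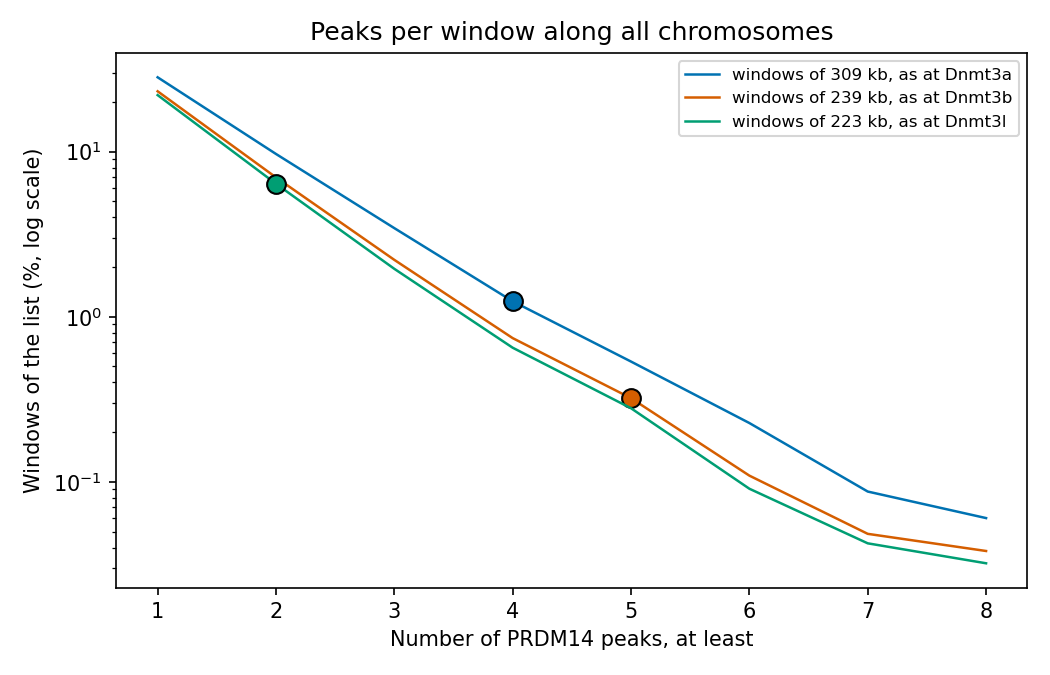
Share of windows in % (vertical, log scale) that held at least the number of PRDM14 peaks on the horizontal axis, for windows of 309, 239 and 223 kb laid along all chromosomes; points mark the number of peaks found at Dnmt3a, Dnmt3b and Dnmt3l. The Dnmt3b point is at 5 peaks and 0.321%, the Dnmt3a point at 4 peaks and 1.24%, and the Dnmt3l point at 2 peaks and 6.39%.

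A peak within 100 kb of a gene can belong to another gene. In RefSeq (GRCm38.p6), the nearest protein-coding neighbours of Dnmt3b are Commd7 on the upstream side and Mapre1 on the downstream side. Those of Dnmt3a are Dtnb upstream and Pomc downstream. Dnmt3l is overlapped at its upstream end by Aire, the autoimmune regulator gene, and followed by Icosl. Which of these genes the 5 upstream peaks of Dnmt3b or the downstream peak of Dnmt3l lie in or next to was not tested, since these genes were not placed on mm9. For the same reason the maintenance methyltransferase Dnmt1, its partner Uhrf1, the Tet genes and other genes of the pathway were not counted.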

How the data were processed

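The deposited peak table and BED list of 1 library, the GFP immunoprecipitation of rescued knockout cells, were used. Per the file headers, the table gives interval, peak position, enrichment, width, maximum IP and a flag. The deposited enrichment is a ratio over a control that is not named. The deposited maximum IP is a pileup signal in whole reads. A deposited flag, a score, was not used. Positions were deposited in bp on mm9, per the submitters' processing notes, and are printed as deposited. No source used here names the aligner, the peak caller or the read depth. All 3608 BED intervals were those of the table.

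Gene spans in kb on mm9 were 3806 to 3915 on chromosome 12 (Dnmt3a), 153475 to 153514 on chromosome 2 (Dnmt3b) and 77504 to 77527 on chromosome 10 (Dnmt3l). Every peak within 100 kb is named, with the first beyond on each side. Genes, limit and lists were chosen with earlier results of these data known. Ranks, medians and window counts used Python 3.11.15, pandas 2.3.3 and NumPy 2.4.6. Counting was tested on simulated lists and recovered all 60 planted counts. Alternatives were other distance limits, thresholds, merging and the BED list. With 1 library there was no test.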

Additional observations from a re-analysis of the deposited data

How the results depend on the processing

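Of 39 alternative values for the peak counts and medians, 24 were kept: counts within 1.5 times the reported one and medians unchanged. With a limit of 10 kb, 2 peaks were left at Dnmt3a, 2 at Dnmt3b and 1 at Dnmt3l. With 200 kb Dnmt3l had 4, and with 500 kb Dnmt3l had 6 and Dnmt3b 9, whereas Dnmt3a stayed at 4. Among peaks at or above the median height, 2 were left at Dnmt3a, 3 at Dnmt3b and 1 at Dnmt3l. With only the upper part by enrichment, Dnmt3a had 2, Dnmt3b 5 and Dnmt3l 2. Merging of gaps under 1 kb, overlap of any base and the BED list left all 3 counts as reported. Merging could not change them, since no gap between the 11 peaks was under 1 kb. The BED list could hardly change them, since its intervals were those of the table. Both settings are among the 24 kept values and say nothing about stability. The median height of 137 reads was 149 with a limit of 50 kb and 113.5 without the Dnmt3b peaks. The median width of 969 bp was 959 with a limit of 200 kb, 954 without the Dnmt3b peaks and 1009 without those of Dnmt3l. Leaving out a gene was chosen after seeing the data. Ranks by enrichment moved both ways from those by height, and 8 of the 11 peaks ranked higher by enrichment. The 176-read peak of Dnmt3a went from 573 to 194, and the 211-read peak of Dnmt3l from 409 to 1448. How all peaks of the list moved was not counted. A factor per chromosome was taken from these same data, as the largest ratio of enrichment to maximum IP on it. Division of enrichment by this factor moved none of the 11 ranks by more than 70 places. No paired analysis was possible because no group had a second library, and no replicate could be left out.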
